A study of Mus musculus with 15 samples.

Results

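Livers of mice given biotransformed bear bile powder (BBBPH) were compared with livers of mice on the same steatohepatitis diet that received saline (model). The comparison rests on 10 of the 15 RNA sequencing libraries of the series, 5 labelled BBBPH and 5 labelled model, and groups were taken from the labels alone. Fat supplied 60% of the calories in the diet of both groups, protein 20% and carbohydrate 20%, cholesterol was added at 0.2%, and the mice drank water with 42 g/L of sugar (55% sucrose, 45% fructose) for 20 weeks. From the end of week 12 the BBBPH mice were dosed daily by mouth with 150 mg/kg of the powder and the model mice with saline, so every difference below is between 2 groups that share the diet. The labels put 14 mice in the dosed group and 5 samples in each sequenced group. They do not say how the 5 were chosen or whether each library is a separate animal, so p-values measure the spread between libraries. Strain, sex and age are not given in the sources used here, nor is the diet of the 5 control libraries, whose values appear only as a background level.

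Bear bile is rich in bile acids, which liver cells make from cholesterol, export into bile and take up again from portal blood. Bile acids act on the nuclear receptor FXR (Nr1h4), which in turn lowers the transcription of enzymes that make them, and some bile acids can also ease protein folding in the endoplasmic reticulum (ER). A diet rich in fat, cholesterol and sugar fills hepatocytes with lipid droplets and is known to burden the ER, to draw in macrophages and to start collagen deposition. In bulk liver RNA a lower value can come from fewer cells of a type or from less RNA per cell, and these cannot be told apart.

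Values are FPKM (fragments scaled to transcript length in kilobases and to library size) as deposited, and means are ± SD (n = 5 libraries). Values of single libraries are listed in the order BBBPH 2_1, 2_2, 3_1, 3_2 and 3_4 and model 1_1, 1_4, 2_1, 2_3 and 3_4. Differences are log2 fold changes, BBBPH minus model, on the log2(FPKM + 1) scale, which understates changes of genes near 1 FPKM. A gene was called, and is said to have risen or fallen, at a Benjamini-Hochberg adjusted p under 0.05 in limma.

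The 10 libraries held 36294653 to 39624160 fragments in genes, and 1 fragment in a transcript of 1 kilobase gave 0.02524 to 0.02755 FPKM. Hepatocyte markers dominated every library, at a summed 67810 to 78030 FPKM in BBBPH and 46240 to 66560 in model. Of the 9 tested, 2 rose (1 of them the abundant Apoa1), 1 fell and 6 were not called, so the higher sum is not a rise of all markers. In a principal component analysis component 1 held 43.8% of the variance and separated the groups (11.6 to 30.9 in BBBPH, -25.86 to -13.5 in model), and BBBPH 2_2 lay apart on component 2 at 28.52. BBBPH 2_2 carried pancreatic acinar transcripts, with 978 FPKM of the chymotrypsinogen gene Ctrb1 against at most 0.803 in the other 9. All 16 tested acinar markers had a positive log2 fold change (1.3 to 1.92), and 0 were called. A rise carried by 1 library widens the spread within its group, so the lack of calls shows nothing about its influence. Saa2, an acute-phase gene, reached 14965 FPKM in model 1_4 and 61.6 to 194 in the rest of its group. Several results that turn on either library are given without it.

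**Figure D1:**
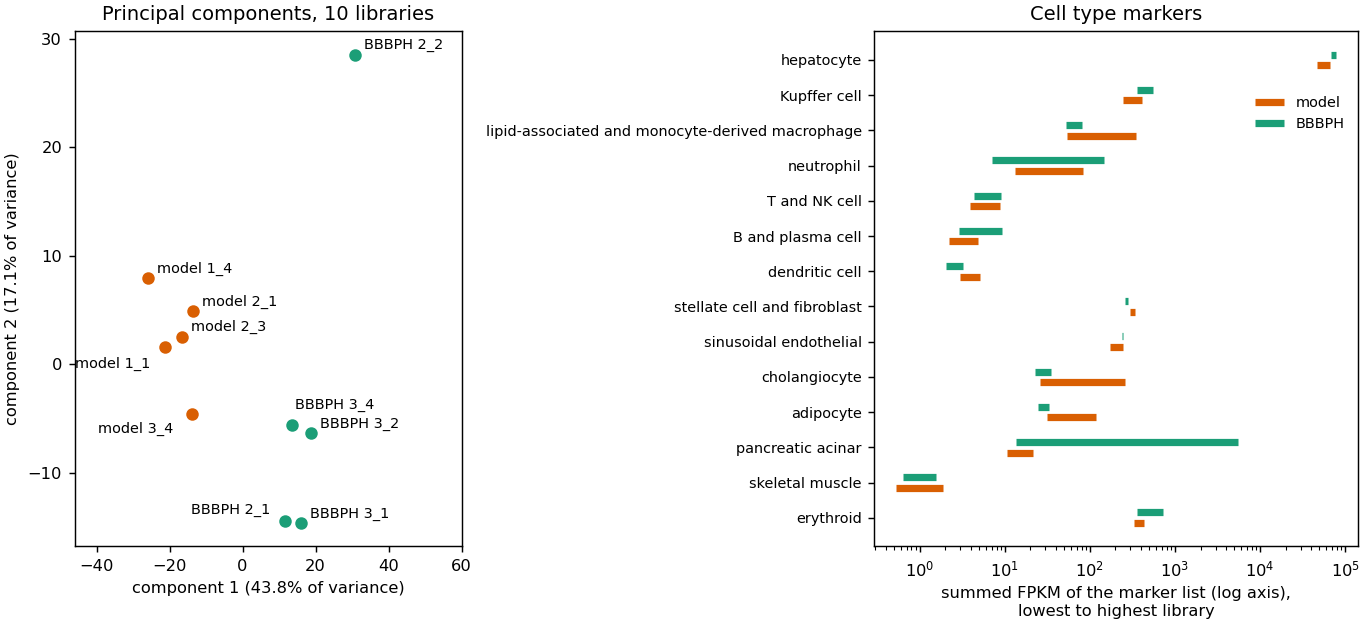
Left, principal components 1 and 2 of log2(FPKM + 1) in the 10 libraries, with the percent of variance on each axis; all 5 BBBPH libraries lie right of all 5 model libraries and BBBPH 2_2 lies highest. Right, the lowest to the highest summed FPKM of each of 14 cell type marker lists in the 5 libraries of a group (log axis); the acinar bar of BBBPH reaches 5575 because of BBBPH 2_2, against 10.7 to 21.75 in model.

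The comparison asked how the liver transcriptome of diet-fed mice differed once the powder was added. Chaperones of the ER and of the cytosol were lower in BBBPH, while genes of cholesterol synthesis, fatty acid synthesis and the cytosolic ribosome were higher. Fat-storage genes, collagens and interferon-stimulated genes contained more falls than rises. The test covered the 9652 genes whose FPKM averaged 1 or more over the 10 libraries. Of these 2306 (23.9%) were called, 1233 (12.8%) higher and 1073 (11.1%) lower in BBBPH. Counts in the lists below are to be read beside these shares. The share called was 31.4% for fatty acid oxidation, 30.2% for P450 genes and 31.8% for complement and coagulation. It was 30% for carbohydrate genes, 30% for insulin signalling and 16.7% for MHC presentation. The groups did not overlap, in the higher direction, for 874 genes (9.06%) and, in the lower direction, for 766 (7.94%). Most changes were small: the median size among called genes was 0.42 on the log2 scale, and 79 called genes rose and 139 fell by at least 1. The median over all genes tested was 0.02. Without BBBPH 2_2, 1795 genes were called, and without both BBBPH 2_2 and model 1_4, 1642 were. With the first digit of the library number as a block, 1069 were called. No BBBPH library has a number starting with 1, so model 1_1 and 1_4 do not enter the group difference in that fit. A call lost under this block, here or below, may therefore only reflect fewer libraries. The meaning of the numbers is not stated.

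**Figure D2:**
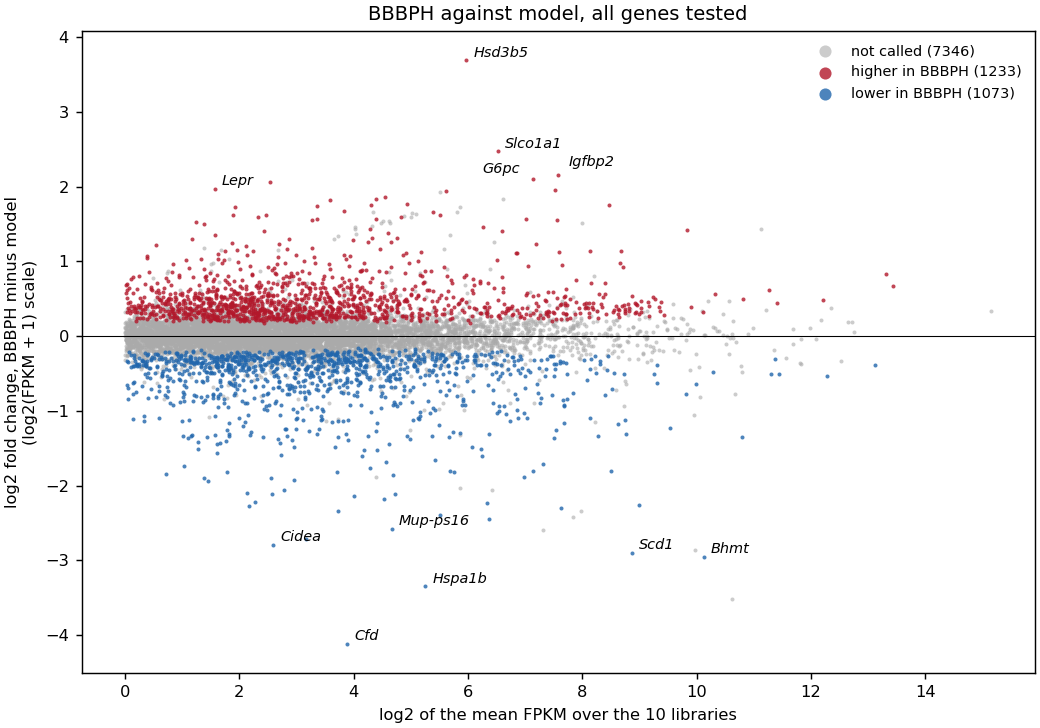
Each point is 1 of 9652 genes, with the log2 of its mean FPKM over the 10 libraries on the x axis and its log2 fold change (BBBPH minus model, log2(FPKM + 1) scale) on the y axis. Red and blue points are the 1233 higher and 1073 lower genes; labelled genes are among the 6 largest rises and the 6 largest falls without overlap between the groups whose higher group averaged 5 FPKM or more.

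**Figure D3:**
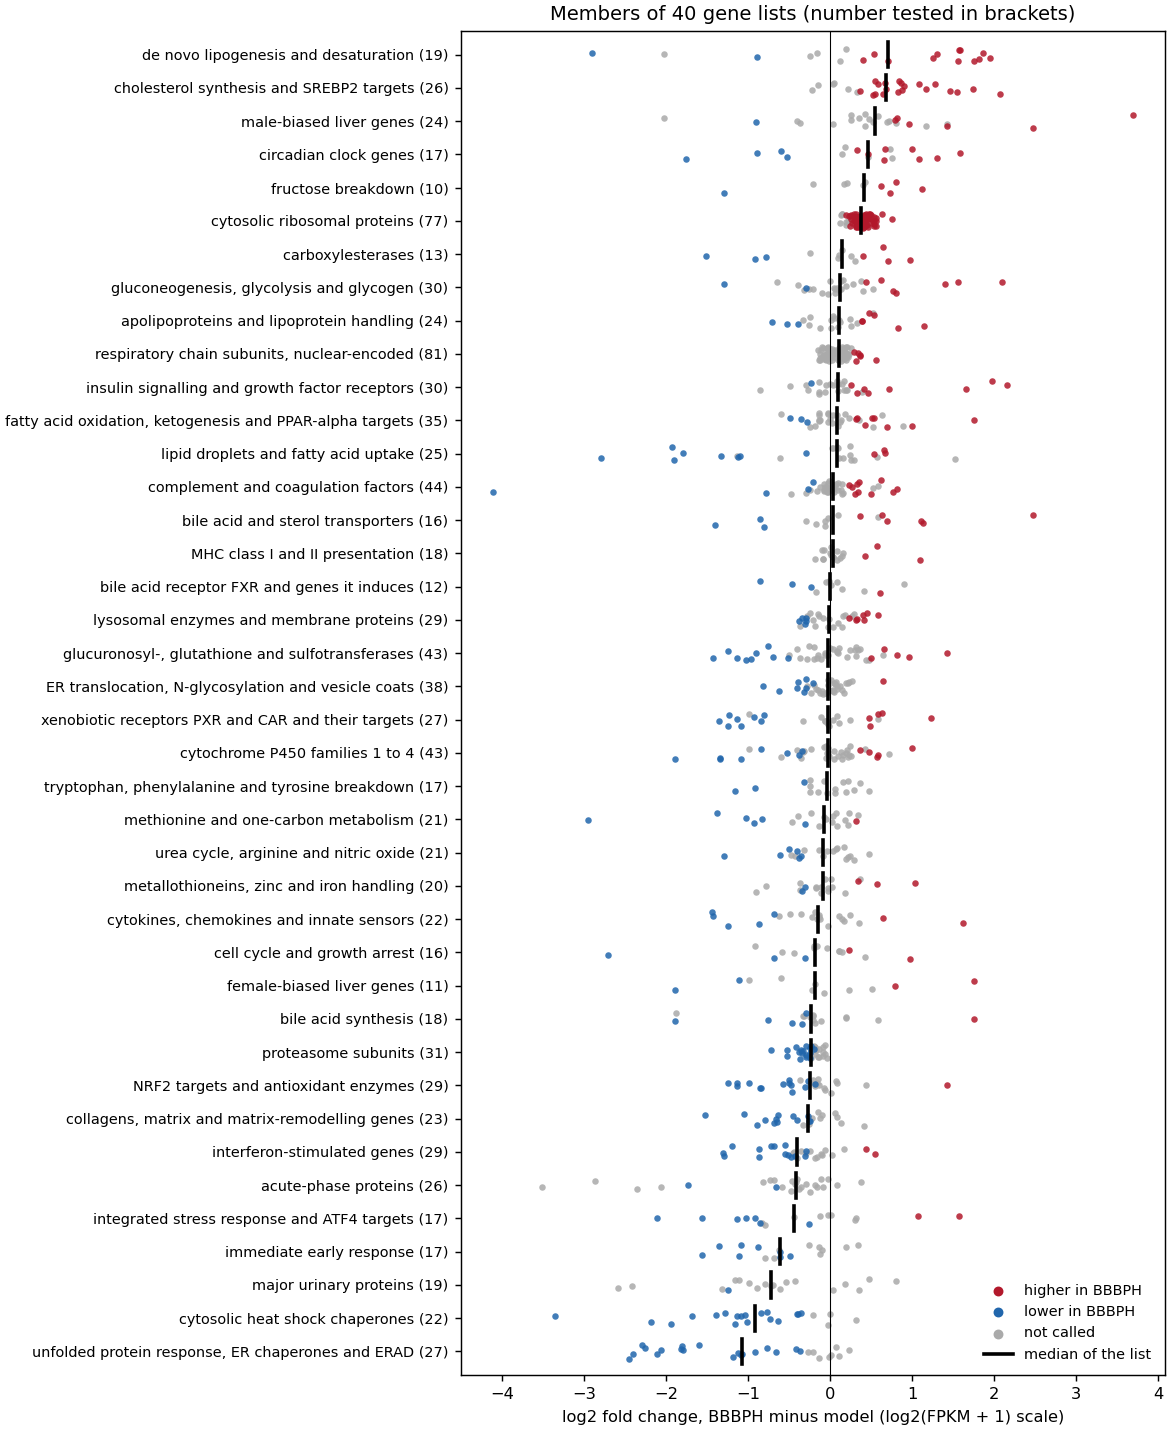
Log2 fold changes of the tested members of 40 gene lists, 1 row a list and 1 point a gene, sorted by the list's median (black bar). ER chaperones (median -1.07) and cytosolic heat shock chaperones (-0.92) lie at the low end, and lipogenesis (0.71) and cholesterol synthesis (0.68) at the high end.

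The ER chaperone genes fell together. Of 27 tested genes of the unfolded protein response, ER chaperones and ER-associated degradation (ERAD), 19 fell and 0 rose, and 17 did not overlap between the groups. The list's median log2 fold change was -1.07. Each library left out in turn gave 19 to 20 falls, the first-digit block 19, and the pair BBBPH 2_2 and model 1_4 left out 19. Hepatocyte, B and plasma cell markers, which belong to secretory cells, summed to 73640 ± 4682 FPKM in BBBPH against 59060 ± 9002 in model for hepatocytes, and to 5.901 ± 2.29 against 3.987 ± 1.165 for B and plasma cells; their part in the result was not tested.

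Hspa5 (chromosome 2, 34771970 to 34777547 in GRCm38) encodes BiP, the main chaperone of the ER lumen. It stood at 165, 165, 235, 174 and 136 FPKM in BBBPH and at 992, 883, 618, 714 and 1004 in model. The groups did not overlap, and the highest BBBPH library, 3_1, lay far below the lowest model library, 2_1. Hspa5 fell by 2.26 on the log2 scale (SE 0.17, adjusted p = 4.05e-05), to a mean of 175 ± 36.7 from 842 ± 171, and control libraries held 231 to 335. Manf, a secreted protein induced by ER stress (chromosome 9, 106838312 to 106891979), stood at 53.1, 68.8, 85.8, 69.7 and 53.6 FPKM in BBBPH and at 341, 340, 244, 309 and 408 in model. Here too no library crossed over, and the log2 fold change was -2.30 (SE 0.16, adjusted p = 4.05e-05). Syvn1, the ubiquitin ligase of ERAD (chromosome 19, 6046576 to 6053712), went from 43.7 ± 8.35 to 9.39 ± 2.14 FPKM (-2.11, adjusted p = 4.05e-05), with control libraries at 6.78 to 14.3. The same library, BBBPH 3_1, was the highest of its group for Hspa5, Manf, Syvn1, Creld2, Sdf2l1, Hyou1 and Hsp90b1.

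Among the other members, the ER protein genes Creld2 (log2 fold change -2.45) and Sdf2l1 (-2.40) fell most, followed by the ERAD gene Derl3 (-2.06), the chaperone Hyou1 (-1.82), the ERAD gene Herpud1 (-1.81) and the disulfide isomerase Pdia4 (-1.80). Canx and Dnajc3 fell least (-0.37 and -0.42). Among stress sensor transcripts, Eif2ak3 fell (-0.92, described below). Those of Ern1 (0.23, adjusted p = 0.234) and Atf6 (0.07, adjusted p = 0.539) were not called. Neither was Xbp1 (0.01, adjusted p = 0.985), whose activated form arises by splicing, which FPKM per gene do not show.

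The RefSeq promoter windows of the ER chaperone list were read on both strands (GRCm38.p6, 250 bases before to 50 after the start). The motif sought was the ER stress response element (CCAAT, then 9 bases of any kind, then CCACG). It was found in 9 of 23 members with a window (39.1%), against 16 of 7822 tested genes with a window (0.205%) and 39 of all 32851 windows (0.119%). All 9 (Calr, Canx, Creld2, Derl3, Dnajc3, Hsp90b1, Hspa5, Pdia6 and Syvn1) were among the 17 fallen members with a window, and 0 of the 6 members that were not called had it. A match is a description of letters and not of a bound site. The list was put together around the ER stress response, with earlier results of these data known. The shares with the element are therefore no independent test, and nothing about shared regulation is drawn from them. The same holds for the elements read in other lists below. Of the members with the element, those with the smallest p in the limma fit were Hspa5, Syvn1 and Hsp90b1, the ER paralogue of HSP90. Their windows are shown: Hspa5 (chr2:34771840-34772139, plus strand), Syvn1 (chr19:6046326-6046625, plus strand) and Hsp90b1 (chr10:86705395-86705694, minus strand). These windows hold 1 element in Hspa5, 1 in Syvn1 and 2 in Hsp90b1. Each runs 5′ to 3′ with the element in capitals, and in Hsp90b1 the second element reads on the opposite strand.
Hspa5: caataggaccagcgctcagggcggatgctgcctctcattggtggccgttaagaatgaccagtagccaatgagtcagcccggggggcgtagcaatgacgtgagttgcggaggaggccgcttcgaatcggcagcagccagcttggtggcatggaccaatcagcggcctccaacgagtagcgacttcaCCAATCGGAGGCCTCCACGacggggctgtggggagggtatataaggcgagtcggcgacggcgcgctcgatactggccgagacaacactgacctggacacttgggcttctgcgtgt
Syvn1: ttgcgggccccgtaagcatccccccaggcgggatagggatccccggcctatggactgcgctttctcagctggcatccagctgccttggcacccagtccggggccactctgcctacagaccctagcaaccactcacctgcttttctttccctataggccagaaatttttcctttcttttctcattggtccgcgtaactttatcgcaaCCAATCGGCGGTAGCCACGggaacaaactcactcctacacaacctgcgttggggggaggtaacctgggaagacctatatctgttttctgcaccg
Hsp90b1: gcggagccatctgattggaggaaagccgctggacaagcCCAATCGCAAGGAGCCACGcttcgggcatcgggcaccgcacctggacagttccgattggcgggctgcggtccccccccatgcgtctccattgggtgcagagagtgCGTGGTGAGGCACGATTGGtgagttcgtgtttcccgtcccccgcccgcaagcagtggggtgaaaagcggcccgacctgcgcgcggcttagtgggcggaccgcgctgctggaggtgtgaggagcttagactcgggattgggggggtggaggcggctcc

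The second arm of ER stress signalling, the integrated stress response, was mixed. This arm runs from kinases such as PERK to the transcription factor ATF4. Of 17 tested members 7 fell and 2 rose (median -0.44). Eif2ak3, which encodes PERK, fell from 7.78 ± 0.742 to 3.66 ± 0.474 FPKM (-0.92, adjusted p = 7.49e-05). Ddit4, an inhibitor of mTOR signalling, fell from 6.28 ± 1.11 to 2.29 ± 0.474 (-1.14, adjusted p = 0.000185), and the pro-apoptotic factor Ddit3, also called CHOP, fell by 2.11. Opposite in direction were the asparagine synthetase gene Asns (1.07, adjusted p = 0.00983) and Fgf21, a hormone secreted by the liver. Fgf21 stood at 27.5, 17.2, 90.1, 16.7 and 14.3 FPKM in BBBPH and at 15.2, 4.04, 8.55, 5.93 and 9.19 in model. Its groups overlapped, since model 1_1 lay above BBBPH 3_4, and its call (1.57, adjusted p = 0.03) was lost in 8 alternatives, at adjusted p of 0.0513 to 0.143, and with the replicate block (adjusted p = 0.236). Atf4 itself was at 0.01 and not called. With the filter at 5 FPKM, 3 members of the list fell.

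Chaperones outside the ER fell as well. In the cytosolic heat shock list 18 of 22 tested members fell and 0 rose (median -0.92, 17 without overlap). Hspa1b, an inducible HSP70 (chromosome 17, 34956436 to 34959238), stood at 6.39, 4.56, 5.97, 5.3 and 2.99 FPKM in BBBPH and at 163, 68.5, 26.3, 52.3 and 46.4 in model. Every model library was above every BBBPH library, and the spread in model came from library 1_1. Hspa1b fell by 3.35 (SE 0.38, adjusted p = 0.000234), and control libraries held 26.5 to 76.5 FPKM. Its near-identical neighbour Hspa1a fell by 1.94, and how reads were divided between the pair is uncertain. Hsph1, a nucleotide exchange factor of HSP70 (chromosome 5, 149614287 to 149636376), stood at 8.33, 6.82, 9.76, 6.78 and 6.44 FPKM in BBBPH and at 53.5, 38.1, 23.3, 38 and 41.5 in model. It fell by 2.18 (adjusted p = 5.8e-05), without overlap, and all 5 BBBPH values lay below the control range of 24.3 to 32.9. The co-chaperone gene Chordc1 fell from 29.8 ± 5.06 to 12.6 ± 0.719 FPKM (-1.16, adjusted p = 7.06e-05). The abundant Hspa8 (-0.77) and Hsp90ab1 (-0.63) fell less. The mitochondrial chaperonins Hspd1 (0.00) and Hspe1 (-0.02) and the steroid receptor co-chaperones Fkbp4 (-0.21) and Fkbp5 (0.31) were not called.

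A heat shock element (GAA, TTC and GAA in a row with 2 bases of any kind between them, on either strand) was present in the promoter windows of 4 of 18 chaperone members with a window (22.2%), in 0.626% of tested genes with a window and in 0.603% of all windows. The 4 were Chordc1 and Hsph1, which fell, and Hspd1 and Hspe1, which were not called. The Chordc1 window (chr9:18292017-18292316, plus strand) is shown because it holds 3 overlapping occurrences, in capitals.
Chordc1: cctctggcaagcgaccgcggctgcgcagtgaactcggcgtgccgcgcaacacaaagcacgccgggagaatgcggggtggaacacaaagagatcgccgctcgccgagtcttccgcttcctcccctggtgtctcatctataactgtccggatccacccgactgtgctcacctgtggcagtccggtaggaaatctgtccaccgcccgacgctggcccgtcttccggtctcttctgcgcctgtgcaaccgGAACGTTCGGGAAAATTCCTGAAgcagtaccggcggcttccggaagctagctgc

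Protein degradation and export went with the chaperones only in part. Of 31 tested subunits in the proteasome list 17 fell and 0 rose, with small sizes (median -0.23). Psmd14, the deubiquitinase of the proteasome lid, was largest, at 20.4, 18.5, 21.6, 24.6 and 24.6 FPKM in BBBPH and 37.4, 34.3, 36.5, 38 and 37.4 in model. The groups stood clear of each other (log2 fold change -0.72, adjusted p = 0.00023), and Psmd1, a base subunit, followed with -0.53 (adjusted p = 0.000428). Without BBBPH 2_2, and also without model 2_1, 13 subunits of the list fell. The proteasome subunit Psmb10 is counted with MHC presentation instead, and it rose (0.57, adjusted p = 0.00883). Of 38 tested genes of ER translocation, N-glycosylation and vesicle coats, 8 fell and 1 rose (median -0.02), a share near that of all genes. The mannosyltransferase gene Alg12 (-0.82, adjusted p = 0.00017) and the coat gene Sec23b (-0.62, adjusted p = 0.000734) fell, and Ssr4, a subunit of the translocon-associated complex, rose by 0.64. Falls numbered 4 under the first-digit block.

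**Figure D4:**
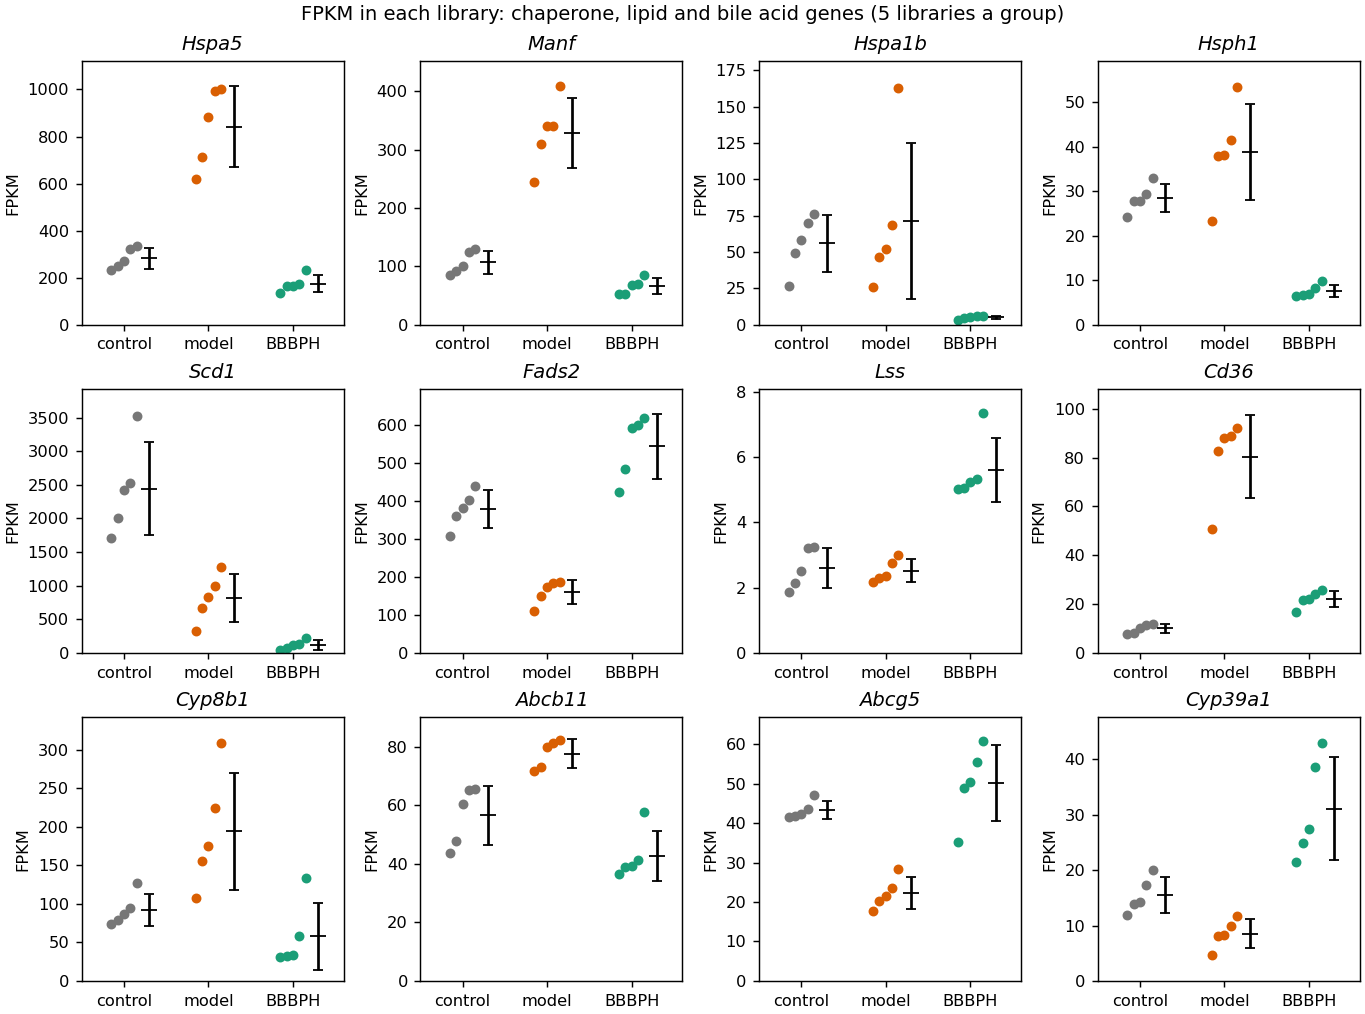
FPKM of 12 chaperone, lipid and bile acid genes in each library of the control, model and BBBPH groups (points, sorted within a group) with the mean ± SD of the 5 libraries beside them; each y axis starts at 0 and has its own scale. The 5 BBBPH libraries lie below the 5 model libraries for Hspa5, Manf, Hspa1b, Hsph1, Scd1, Cd36 and Abcb11, and above them for Fads2, Lss, Abcg5 and Cyp39a1; Cyp8b1 overlaps.

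Most fatty acid synthesis genes rose, and Scd1 fell. In the list of de novo lipogenesis and desaturation 12 of 19 tested members rose and 2 fell (median 0.71), and each library left out in turn gave 12 rises. Fads2 and Fads1 encode the desaturases that make polyunsaturated fatty acids and lie near each other on chromosome 19 (10062765 to 10101746 and 10182888 to 10196877). Fads2 stood at 425, 620, 601, 594 and 485 FPKM in BBBPH and at 151, 110, 186, 185 and 174 in model, and control libraries held 309 to 441. The groups were far apart, with a log2 fold change of 1.76 (SE 0.16, adjusted p = 7.06e-05). Fads1 rose by 1.56 (adjusted p = 7.06e-05). Fatty acid synthase, Fasn, stood at 21.6, 35.5, 31.6, 72.9 and 27.9 FPKM in BBBPH and at 8.12, 7.45, 9.57, 11.1 and 8.21 in model, highest in BBBPH 3_2 (1.86, adjusted p = 0.000635). Elovl6 (1.82), Acaca (1.57), Acacb (1.59), the lipogenic cofactor Thrsp (1.95) and the transcription factor Srebf1 (1.25) rose with it.

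Scd1 went the other way. This enzyme introduces the double bond of monounsaturated fatty acids, and its gene (chromosome 19, 44394455 to 44407879) stood at 225, 129, 39.4, 72.6 and 110 FPKM in BBBPH and at 661, 830, 1000, 1275 and 321 in model. The groups did not overlap, and the log2 fold change was -2.90 (SE 0.45, adjusted p = 0.00126). Both groups lay below all control libraries (1716 to 3528 FPKM), so the BBBPH values were the farthest from control. Insig2, which holds SREBP in the ER, fell by 0.89, and the elongase Elovl3 was at -2.03 but not called (adjusted p = 0.0848).

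Most genes of cholesterol synthesis rose. Of 26 tested genes of the pathway and of its regulator SREBP2, 20 rose and 0 fell (median 0.68, 16 without overlap), and 19 to 21 rose with each library left out. Sqle, the squalene epoxidase, stood at 19.3, 16.1, 12.5, 14.7 and 17.7 against 5.33, 5.74, 2.1, 1.73 and 8 FPKM (1.74, adjusted p = 0.00204), again without overlap. Lss, the next enzyme, rose from 2.52 ± 0.351 to 5.6 ± 0.987 FPKM (0.90, adjusted p = 0.000244), with its highest value in BBBPH 2_2. Idi1 rose by 1.55 and Fdps by 1.46. Hmgcs1, at the entry of the pathway, was at 0.04 and not called (adjusted p = 0.87), nor was Srebf2 (0.22). A sterol regulatory element, TCACNCCAC on either strand, was found in 1 of 18 members with a promoter window (5.56%, Hmgcs1), in 1.47% of tested genes with a window and in 1.24% of all windows.

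Genes for taking up and storing fat contained several large falls. Of 25 tested members 8 fell and 3 rose (median 0.08). Cd36, a fatty acid transporter (chromosome 5, 17781690 to 17888801), stood at 16.9, 21.7, 22.1, 24.1 and 25.6 FPKM in BBBPH and at 87.9, 82.6, 92.2, 88.9 and 50.6 in model, and control libraries held 7.79 to 12. Even model 3_4, the lowest of its group, exceeded every BBBPH library (log2 fold change -1.80, SE 0.16, adjusted p = 7.11e-05). Plin4, a lipid droplet coat protein, fell from 13 ± 3.79 to 2.59 ± 0.565 FPKM (-1.93, adjusted p = 7.49e-05). Pparg, a receptor that drives fat storage, fell by 1.33, and Mogat1, which makes diacylglycerol, by 1.90. Cidea, which enlarges lipid droplets, stood at 0.0449, 0, 0.0235, 0.113 and 0.0434 FPKM in BBBPH and at 6.78, 13.8, 2.99, 36.2 and 0.166 in model. Only BBBPH 3_2, at 0.113, exceeded the level of 3 fragments in 1 kilobase (0.0757 to 0.0821 FPKM in BBBPH), and the other BBBPH libraries lay below it. Model 3_4, at 0.166, was above its own level of 0.0826. The gene passed the filter through the model libraries. The call of Cidea (-2.79, adjusted p = 0.0156) was lost with BBBPH 2_2 and model 1_4 left out, with the first-digit block and with voom (adjusted p 0.0616 to 0.131), and with the replicate block (adjusted p = 0.419). The main droplet coat gene Plin2 was not called (0.04). Fabp1, the cytosolic fatty acid carrier, rose by 0.66, and the lipases Pnpla2 (0.53) and Lipe (0.67) rose too.

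Oxidation and lipoprotein genes shifted less. In fatty acid oxidation, ketogenesis and PPAR-alpha targets, 8 of 35 tested members rose and 3 fell (median 0.09). Cpt1a, the gate of mitochondrial fat import, rose from 115 ± 15.6 to 167 ± 14.2 FPKM (0.54, adjusted p = 0.00296) and Eci2 by 0.43 (adjusted p = 0.00282), and 4 rose with the first-digit block. Of 24 tested apolipoprotein and lipoprotein genes 6 rose and 3 fell (median 0.11). Apom, an HDL protein, stood at 396, 415, 361, 393 and 365 FPKM in BBBPH and at 159, 160, 171, 163 and 226 in model (1.14, adjusted p = 7.06e-05). No model library reached the BBBPH range, model 3_4 coming nearest. Apoa1, the main HDL protein, rose from 7392 ± 1645 to 12920 ± 1263 FPKM (0.83, adjusted p = 0.0035), while Apoc1 (-0.53) and Apoe (-0.39) fell.

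Bile acid synthesis was lower in several steps, though not clearly in its first. In the list 5 of 18 tested members fell and 1 rose (median -0.23), and 3 to 8 fell with each library left out (8 without model 1_4, 3 without BBBPH 3_2 or without model 1_1). Under the first-digit block 3 fell, and with library weights 9. Cyp7a1, the rate-limiting enzyme (chromosome 4, 6265612 to 6275633), stood at 1.87, 13.3, 0.695, 8.87 and 36.5 FPKM in BBBPH and at 53.2, 29, 34, 19.6 and 13.8 in model. BBBPH 3_4 lay inside the model range, the other 4 below it, and the difference of -1.88 (SE 0.73) was not called (adjusted p = 0.0831). Without BBBPH 3_4 it was (adjusted p = 0.0174). Cyp8b1, the 12-alpha-hydroxylase that sets the share of cholic acid (chromosome 9, 121914356 to 121916305), stood at 133, 30.7, 33.7, 32.8 and 58.3 FPKM in BBBPH and at 308, 107, 175, 156 and 224 in model. It fell by 1.89 (SE 0.40, adjusted p = 0.00597), with an overlap because BBBPH 2_1 lay above model 1_4, and control libraries held 73.9 to 127.

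Later steps fell by less. Hsd3b7, which acts on the sterol ring, fell from 188 ± 20.9 to 112 ± 24.3 FPKM (-0.76, adjusted p = 0.00314), and the conjugating enzymes Baat and Slc27a5 fell by 0.46 and 0.30. Of the alternative pathway, Cyp27a1 was at -0.19 (adjusted p = 0.233) and Cyp7b1 at 0.58 (adjusted p = 0.198), with overlapping groups. Cyp27a1 was called lower without model 1_4 (adjusted p = 0.0394) and with library weights (adjusted p = 0.0432). Cyp39a1, a 7-alpha-hydroxylase of oxysterols (chromosome 17, 43667425 to 43751431), was the rise in the list, at 24.9, 43, 38.6, 27.5 and 21.4 FPKM in BBBPH and 10, 4.61, 11.7, 8.06 and 8.28 in model. Its groups did not overlap (1.75, SE 0.23, adjusted p = 0.000505).

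Bile acid transporters changed in both directions, and the sterol export pump rose. Of 16 tested members 6 rose and 3 fell (median 0.04). Abcb11, the export pump for bile acids (chromosome 2, 69238282 to 69342616), stood at 39.4, 36.5, 38.9, 57.7 and 41.2 FPKM in BBBPH and at 71.7, 73, 79.8, 81.3 and 82.3 in model. It fell by 0.86 (SE 0.11, adjusted p = 0.000463) without overlap, and control libraries held 43.7 to 65.6. Abcc3, which exports conjugates to blood, fell by 0.81, and the sodium-dependent importer Slc10a2 by 1.40. The basolateral importer Slc10a1 (NTCP; chromosome 12, 80953183 to 80968705) stood at 337, 424, 345, 519 and 478 FPKM in BBBPH and at 289, 218, 275, 277 and 220 in model, and rose by 0.70 (adjusted p = 0.00415). Slco1a1, an organic anion importer that is also male-biased, rose by 2.47 (SE 0.49, adjusted p = 0.00441), from 35.1 ± 30 to 150 ± 22.2 FPKM. Abcg5 and Abcg8 form the sterol export pump. Abcg5 stood at 35.3, 50.3, 49, 60.9 and 55.5 FPKM in BBBPH and at 21.6, 17.8, 28.4, 23.6 and 20.2 in model (1.13, adjusted p = 0.000505), without overlap, and Abcg8 rose by 1.11.

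FXR and genes it induces did not move one way. Of 12 tested members 1 rose and 3 fell (median 0.00), and 1 fell without BBBPH 3_2 or without model 1_1. The receptor gene Nr1h4 (chromosome 10, 89454234 to 89533585) rose from 53.1 ± 7.74 to 81.6 ± 9.9 FPKM (0.61, adjusted p = 0.00363), whereas Abcb11 and Baat fell, as did the FGF receptor gene Fgfr4 (-0.23). Nr0b2, the repressor SHP and a direct target, stood at 12.6, 16.2, 31.3, 15.6 and 14.7 FPKM in BBBPH and at 11.6, 3.66, 21.7, 17 and 18.7 in model. The groups overlapped in part, with BBBPH 3_1 above all model libraries and model 1_1 and 1_4 below all BBBPH libraries (0.41, SE 0.39, adjusted p = 0.476).

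Xenobiotic metabolism changed gene by gene. Of 27 tested targets of the receptors PXR and CAR, 5 rose and 8 fell (median -0.03), and 5 fell without model 1_1 or without model 2_1. Aldh1a1, a retinal dehydrogenase, fell from 1039 ± 138 to 441 ± 37.1 FPKM (-1.23, adjusted p = 5.8e-05), while Por, the reductase that feeds all microsomal cytochromes P450, rose from 86.3 ± 11.9 to 206 ± 44.4 (1.23, adjusted p = 0.000238). Cyp3a11, the classic PXR target, stood at 591, 585, 546, 525 and 389 FPKM in BBBPH and at 992, 224, 704, 552 and 485 in model, and was not called (-0.02, adjusted p = 0.965). Its sign turned when BBBPH 3_4, model 1_1 or model 2_1 was left out (0.08, 0.20 and 0.08). Cyp2b10, the classic CAR target, was below the level for testing, at 0.0403 to 0.239 FPKM in BBBPH and 0.044 to 0.404 in model. Of 43 tested cytochromes P450 of families 1 to 4, 5 rose and 8 fell (median -0.03), with Cyp2c39 at -1.34 (adjusted p = 5.8e-05) and Cyp4f13 at 0.57 (adjusted p = 0.000662). Members of the Cyp2c cluster are alike in sequence, so their separate values are uncertain. Without BBBPH 3_1, BBBPH 3_2 or model 2_3, 3 of these P450 genes rose. Rises under the first-digit block were 1 P450 gene and 2 PXR and CAR targets.

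Of 43 tested glucuronosyl-, glutathione and sulfotransferases 5 rose and 9 fell (median -0.02), with Ugt3a1 at -1.03 (adjusted p = 7.53e-05) and Gstt2 at 0.81 (adjusted p = 0.00121). Gstp1 rose by 1.42 (adjusted p = 0.00152), and its near-copies Gstp2 and Gstp3 rose by 0.96 and 0.66, though reads may be shared among them. Among 13 carboxylesterases 4 rose and 3 fell (median 0.15), led by Ces1g (-1.51, adjusted p = 0.00112) and Ces1e (-0.92, adjusted p = 0.00251). The 4 rises became 1 without model 1_1 and 2 without BBBPH 2_1, BBBPH 3_1, model 2_1 or model 3_4, and 1 with no filter. With the first-digit block 3 transferases rose and 5 fell, 1 carboxylesterase rose, 7 antioxidant genes fell and 1 metal gene rose. Antioxidant genes and NRF2 targets held 14 falls and 1 rise among 29 tested (median -0.24), and 8 falls without model 1_1 or without model 2_1. Hmox1, the heme oxygenase, fell by 0.99, Srxn1 by 1.13, glutathione reductase (Gsr) by 0.50 (adjusted p = 0.000428) and Gpx1 by 0.50 (adjusted p = 0.00123; not called with quantile scaling, adjusted p = 0.0716, or with the replicate block, adjusted p = 0.236). Metal genes held 3 rises and 2 falls among 20 tested, the rises including the zinc transporters Slc39a4 (1.04, adjusted p = 0.00168) and Slc30a1 (0.57, adjusted p = 0.00484).

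Matrix and inflammation genes were lower in part, and so were some markers of stellate cells and of lipid-associated macrophages, but not Kupffer cell markers. Of 23 tested collagen, matrix and remodelling genes 13 fell and 0 rose (median -0.27), 6 of them without overlap. Col3a1 (chromosome 1, 45311538 to 45349706) stood at 3.17, 5.14, 4.05, 4.65 and 2.64 FPKM in BBBPH and at 8.43, 10.2, 11, 10.7 and 5.91 in model, with control libraries at 3.1 to 4.09. The groups were apart (-1.05, SE 0.18, adjusted p = 0.00188). Col1a1, the main fibrillar collagen, fell from 2.56 ± 0.912 to 0.889 ± 0.327 FPKM (-0.89, adjusted p = 0.00578) with overlap, since BBBPH 2_2 lay above model 3_4, and Col14a1 fell by 0.65 (adjusted p = 0.00101). Stellate cell and fibroblast markers held 5 falls and 0 rises among 14 tested. Their summed level was 259.8 to 280.5 FPKM in BBBPH against 292.9 to 335 in model. The stellate list also holds Col1a1 and Col14a1, so their falls above are counted there too and are not separate results. Among the stellate markers not called were Des (0.01), Acta2 (0.18) and Lrat (-0.11). Without BBBPH 2_2 and model 1_4, 6 matrix genes and 3 stellate markers fell, and 2 stellate markers fell without BBBPH 3_2 or without model 2_1. With the first-digit block 5 matrix genes and 2 stellate markers fell, and with the filter at 5 FPKM 5 matrix genes. The part of cell numbers in the matrix result was not tested.

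Among 22 tested cytokine, chemokine and sensor genes 5 fell and 2 rose (median -0.15). Ccl2, which recruits monocytes (chromosome 11, 82035571 to 82037453), stood at 0.649, 1.51, 0.849, 0.818 and 1.63 FPKM in BBBPH and at 6.49, 8.24, 3.68, 4.83 and 1.88 in model. It fell by 1.44 (adjusted p = 0.00348), without overlap but with model 3_4 close to BBBPH. Cxcl10 fell by 1.43 (adjusted p = 0.00204). Cxcl13 (1.62) and Il1b (0.64) rose, both with overlap. Tnf was below the level for testing, at 0.0159 to 0.107 FPKM in BBBPH and 0.142 to 0.771 in model. Markers of lipid-associated and monocyte-derived macrophages held 3 falls among 8 tested (Mmp12, Lpl and Trem2), and their sum was 51.86 to 81.34 FPKM in BBBPH and 53.31 to 347.3 in model, the highest in model 1_4 through Spp1. Kupffer cell markers held 2 rises among 10 (Marco and C6), with a sum of 356.7 to 556.2 FPKM in BBBPH and 243.3 to 405.9 in model. Blocking on the first digit, 2 cytokine genes and 1 macrophage marker fell, with the filter at 5 FPKM 2 and 1, and with no filter 9 and 6.

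Of 29 tested interferon-stimulated genes 14 fell and 2 rose (median -0.40), and 10 to 17 fell with each library left out. The summed level of the list was alike in the groups, at 526.8 ± 47.87 FPKM in BBBPH and 532.5 ± 48.94 in model. Falls numbered 8 under the first-digit block and 7 with the filter at 5 FPKM. Rsad2, an antiviral radical enzyme (chromosome 12, 26442746 to 26456452), stood at 1.33, 1.49, 2.1, 1.11 and 2.04 FPKM in BBBPH and at 5.55, 6.19, 5.38, 4.77 and 5.3 in model. The groups were well separated (-1.31, SE 0.11, adjusted p = 5.8e-05). Its neighbour Cmpk2 fell by 0.87 (adjusted p = 0.000876), Isg15 by 1.30 and Ifit1 by 1.20, while Bst2 (0.55) and Ifi27 (0.44) rose. The interferon-stimulated response element (GAAA, 2 bases of any kind, GAAA, on either strand) was in the windows of 12 of 23 members (52.2%; 7 of 13 called and 5 of 10 not called), in 3.82% of tested genes with a window and in 3.44% of all windows. The Rsad2 window (chr12:26456403-26456702, minus strand) is shown because Rsad2 was the member with the smallest p; the element, read on the opposite strand, is in capitals.
Rsad2: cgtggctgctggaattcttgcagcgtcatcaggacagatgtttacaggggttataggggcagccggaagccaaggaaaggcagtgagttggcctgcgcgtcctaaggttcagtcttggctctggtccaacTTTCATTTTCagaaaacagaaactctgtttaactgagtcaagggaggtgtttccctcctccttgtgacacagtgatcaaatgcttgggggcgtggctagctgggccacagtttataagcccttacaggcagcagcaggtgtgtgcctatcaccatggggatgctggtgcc

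Few acute-phase genes passed the test. Acute-phase proteins held 2 falls among 26 tested (median -0.42), and Saa2 was not called (-3.52, SE 1.28, adjusted p = 0.0687). It stood at 95.3, 10.4, 16.6, 14.6 and 43 FPKM in BBBPH and at 122, 14965, 117, 194 and 61.6 in model. Without model 1_4 it was called lower, and its adjusted p lay between 0.0257 and 0.0495 in the 4 alternatives that called it. Of 44 tested complement and coagulation genes 10 rose and 4 fell (median 0.04), with the coagulation factor gene F7 up by 0.62 (adjusted p = 0.000602). Without BBBPH 3_1, 6 rose, and without BBBPH 2_2, BBBPH 3_2 or model 2_3, 2 fell. Cfd, complement factor D, known best as the adipocyte protein adipsin (chromosome 10, 79890853 to 79892655), had the largest fall of the whole comparison by the naming rule. It stood at 0.284, 0.938, 0.119, 0.343 and 0.383 FPKM in BBBPH and at 49.2, 39, 13.9, 37.8 and 5.92 in model (-4.11, SE 0.47, adjusted p = 0.000233), without overlap. Of the 7 adipocyte markers 3 were tested, and besides Cfd neither Cidec (-1.14, adjusted p = 0.172) nor Fabp4 (-0.61, adjusted p = 0.0579) was called. Their mean levels were 5.72 FPKM in BBBPH and 17.3 in model for Cidec, and 21.5 and 35.4 for Fabp4. The other 4 were below the level for testing: Lep, Retn and Plin1 had means under 0.1 FPKM in both groups, and Adipoq was at 0 to 0.4. The part of fat cells in the fall of Cfd was not tested. Of 18 tested genes of MHC presentation 3 rose and 0 fell, with H2-Q7 at 1.10 (adjusted p = 0.000635) and Psmb10 at 0.57 (adjusted p = 0.00883). With the first-digit block 5 complement and coagulation genes rose and 2 fell, and 1 MHC gene rose.

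Carbohydrate genes held more rises than falls. Of 30 tested genes of gluconeogenesis, glycolysis and glycogen, 7 rose and 2 fell (median 0.12). G6pc, which releases glucose from the liver (chromosome 11, 101367561 to 101377903), stood at 192, 180, 230, 319 and 181 FPKM in BBBPH and at 123, 12.8, 51, 44.9 and 77.1 in model. No library crossed over, and model 1_4 was lowest (2.10, SE 0.46, adjusted p = 0.00763). Gys2, the liver glycogen synthase, rose from 52.5 ± 10.6 to 141 ± 29.6 FPKM (1.40, adjusted p = 0.000245), and Pklr, the liver pyruvate kinase, from 64.8 ± 20.3 to 194 ± 64.3 (1.56, adjusted p = 0.00144). Fructose breakdown held 4 rises and 1 fall among 10 tested, with Tkfc, the triokinase, at 1.12 (adjusted p = 0.00274) and the sugar transporter Slc2a8 at 0.73 (adjusted p = 0.000554). Blocking on the first digit left rises in 3 carbohydrate genes and 2 fructose genes.

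Among the called amino acid genes falls outnumbered rises. The share called in either direction was 28.6%, 33.3% and 17.6% in the 3 lists below, in order, against 23.9% of all genes tested. In the urea cycle and arginine list 6 of 21 tested members fell and 0 rose (median -0.09), led by Oat, the ornithine aminotransferase, which went from 621 ± 146 to 251 ± 60.5 FPKM (-1.30, adjusted p = 0.000752), and Glud1 (-0.50, adjusted p = 0.000732). In methionine and one-carbon metabolism 6 of 21 fell and 1 rose (median -0.07). Bhmt, which remethylates homocysteine with betaine (chromosome 13, 93616675 to 93637961), stood at 866, 159, 45.5, 171 and 614 FPKM in BBBPH and at 2674, 1673, 1406, 1427 and 2103 in model. BBBPH libraries spread over a wide range but stayed below model (-2.95, SE 0.65, adjusted p = 0.00777). Cbs (-0.93, adjusted p = 0.000365) and Dmgdh (-0.83, adjusted p = 0.000998) fell too. In tryptophan, phenylalanine and tyrosine breakdown 3 of 17 fell, including Kynu (-0.91, adjusted p = 0.000635) and Tat (-1.16, adjusted p = 0.00665). In these lists, in the order given, 3, 3 and 1 members fell under the first-digit block, and with library weights 5 of the last list.

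In the list of insulin signalling and growth factor receptors 8 of 30 tested members rose, 1 fell and 21 were not called (median 0.10). Igfbp2, an IGF-binding protein made by the liver (chromosome 1, 72824503 to 72852474), stood at 359, 277, 261, 279 and 351 FPKM in BBBPH and at 86.6, 29.5, 72.2, 53.2 and 135 in model. Control libraries held 263 to 349, and all BBBPH libraries lay above all model libraries (2.16, SE 0.32, adjusted p = 0.000856). Lepr, the leptin receptor (chromosome 4, 101717404 to 101815352), stood at 4.35, 9.5, 3.21, 6.14 and 3.81 against 0.411, 0.438, 0.775, 0.594 and 0.543 FPKM (1.97, SE 0.21, adjusted p = 0.000152), and Egfr rose by 1.66. The insulin receptor Insr (0.10) and its substrates Irs1 (0.17) and Irs2 (0.39) were not called.

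Among 24 tested genes known to be higher in male than in female mouse liver, 6 rose and 1 fell (median 0.55). Hsd3b5, a steroid dehydrogenase (chromosome 3, 98618634 to 98630252), had the largest rise of the naming rule. It stood at 88.4, 73.1, 176, 125 and 96.1 FPKM in BBBPH and at 3.74, 5.35, 1.39, 10.5 and 47.6 in model (3.69, SE 0.64, adjusted p = 0.0023). Model 3_4 lay above the rest of its group but below all BBBPH libraries. Of 11 tested female-biased genes 2 rose, Acot3 (1.76, adjusted p = 0.00517) and Fmo2, and 2 fell, Cyp2a22 (-1.89, adjusted p = 0.00578) and Hao2. Major urinary protein genes, which share long stretches of sequence, had 1 call among 19, a fall. The pseudogene Mup-ps16 of that cluster was among the 6 largest falls (-2.58, adjusted p = 0.00103), and its reads may belong to other members.

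Of 17 tested clock genes 8 rose and 4 fell (median 0.46). Cry2, a repressor of the clock (chromosome 2, 92403646 to 92434043), stood at 7.46, 7.97, 9.79, 9.07 and 8.1 FPKM in BBBPH and at 4.23, 4.01, 6.15, 4.76 and 5.78 in model. The groups did not overlap (0.67, SE 0.11, adjusted p = 0.00164). Per3, a period gene, rose by 1.30 (adjusted p = 0.00241), and Nr1d1 fell by 1.76. With each library left out 5 to 11 rose (5 without BBBPH 3_1 or model 2_3) and 1 to 3 fell (1 without BBBPH 2_2, model 1_1 or model 3_4). With the first-digit block 3 rose and 1 fell, with the filter at 5 FPKM 4 and 2, and with no filter 5 and 1. The hour at which each liver was taken is not given in the sources used here, and its part in these changes was not tested.

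Cytosolic ribosomal proteins had the highest share of rises among the 40 lists. Of 77 tested members 70 rose and 0 fell, all 77 had a positive difference, and 64 did not overlap, with a median of 0.38. Rpl3 (chromosome 15, 80077791 to 80091868) stood at 286, 335, 255, 327 and 292 FPKM in BBBPH and at 164, 197, 172, 174 and 180 in model (0.75, SE 0.09, adjusted p = 0.000257), without overlap. The count was 66 as TPM, 68 with median-ratio scaling, 59 without BBBPH 2_2 and model 1_4, and 37 with the first-digit block. Nuclear-encoded subunits of the respiratory chain did not share this rise: 6 of 81 tested rose and 0 fell (median 0.11), among them Ndufs7 (0.36, adjusted p = 0.00528) and Ndufa4l2 (0.36, adjusted p = 0.0254), with 2 rises without BBBPH 2_2, 1 without BBBPH 3_2 and 3 without BBBPH 3_4, model 1_1, model 2_3 or model 3_4, and with 1 rise under the first-digit block and 3 with no filter. The call of Ndufa4l2 was lost in 6 alternatives (adjusted p 0.0528 to 0.0622), with the replicate block (adjusted p = 0.506) and with the fold minimum.

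Immediate early genes, which respond within minutes to stress or handling, held 8 falls and 0 rises among 17 tested (median -0.61). Egr1 fell from 4.4 ± 2.09 to 1.04 ± 0.474 FPKM (-1.35, adjusted p = 0.00419) and Ier5 by 0.61 (adjusted p = 0.0039). In the cell cycle list 3 of 16 tested fell and 2 rose (median -0.18). Cdkn1a, the growth arrest gene p21, stood at 10, 0.73, 0.511, 0.376 and 0.607 FPKM in BBBPH and at 27.7, 13.4, 7.37, 10.4 and 18.3 in model (-2.71, adjusted p = 0.00483). BBBPH 2_1 reached the model range and the other 4 did not. Ccng1 fell by 0.68 (adjusted p = 0.000323), and Rrm2, a subunit of ribonucleotide reductase, rose by 0.98 (adjusted p = 0.00169). Lysosomal genes split into 7 rises and 5 falls among 29 tested (median -0.01), with the cholesterol exporter Npc1 at 0.59 (adjusted p = 0.000732) and Glb1 at 0.45 (adjusted p = 0.00367), and 3 fell without BBBPH 3_2 or without model 2_1. Under the first-digit block 3 lysosomal genes rose and 2 fell, and 5 immediate early genes and 1 cell cycle gene fell. With the filter at 5 FPKM 3 immediate early genes fell.

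**Figure D5:**
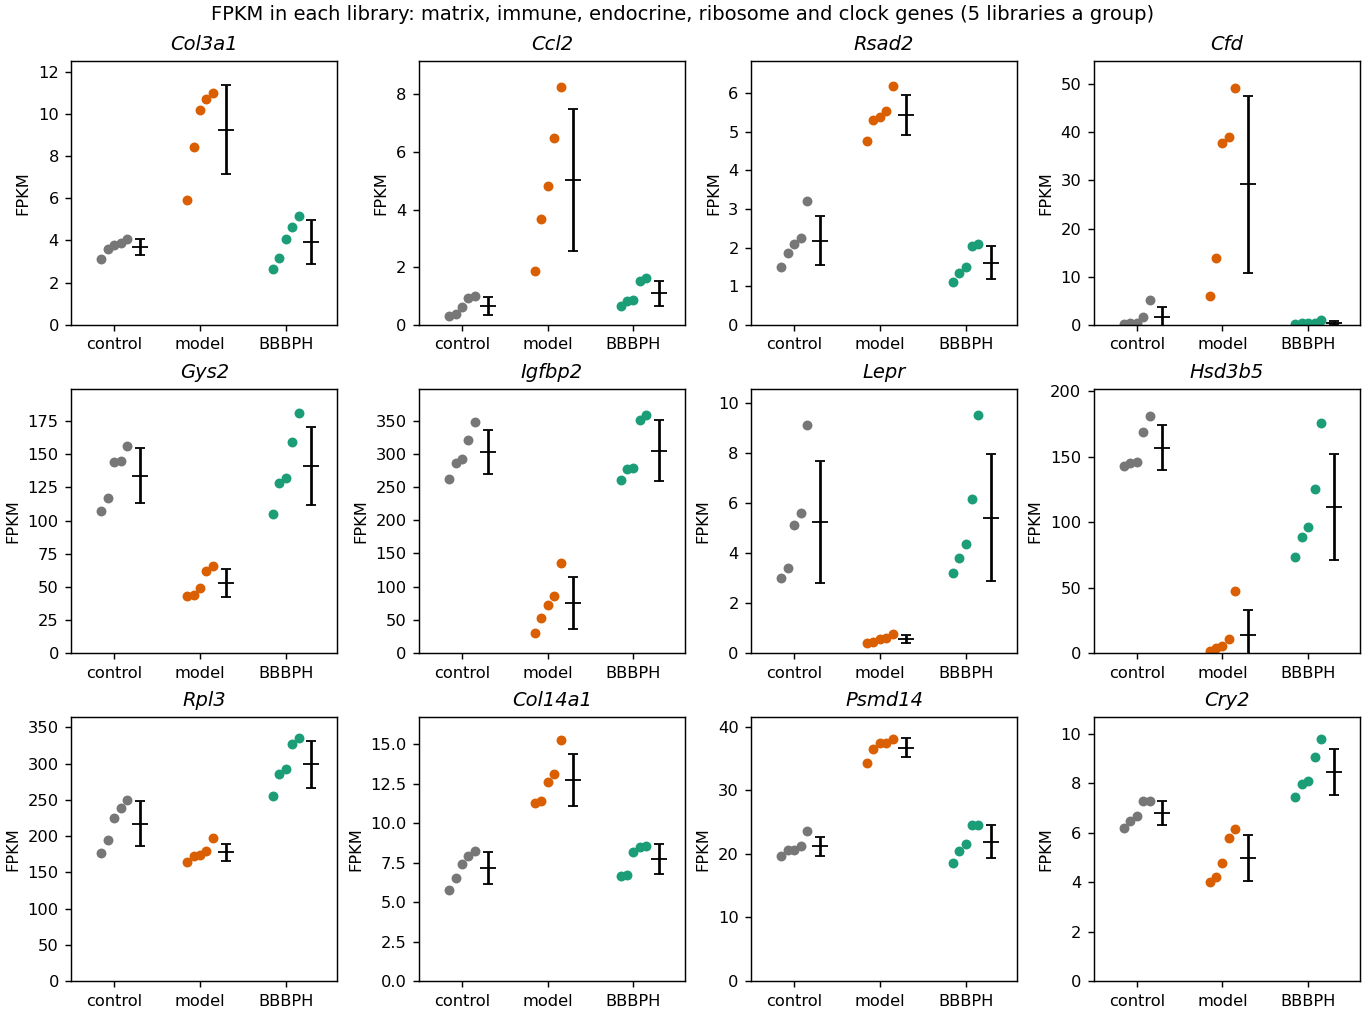
FPKM of 12 matrix, immune, endocrine, ribosome and clock genes in each library of the control, model and BBBPH groups (points, sorted within a group) with the mean ± SD of the 5 libraries beside them; each y axis starts at 0, where the bars of Cfd and Hsd3b5 are cut off, and has its own scale. BBBPH lies below model for Col3a1, Col14a1, Ccl2, Rsad2, Cfd and Psmd14 and above it for Gys2, Igfbp2, Lepr, Hsd3b5, Rpl3 and Cry2.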

How the data were processed

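Liver RNA was extracted with TRIzol and made into libraries with a VAHTS Universal V6 kit, per the labels' protocols; the strand setting is not given in the sources used here. FPKM per gene were used as deposited by the authors. Upstream tools, per the submitters' processing notes and without versions or roles, were HISAT2, HTSeq, fastp and DESeq2, with the build mm10. The series table and the 15 single files held the same values.

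Groups came from the labels. Genes whose FPKM averaged 1 or more over the 10 libraries were tested on log2(FPKM + 1) with limma 3.58.1 in R 4.3.3 (eBayes with trend, 8 residual degrees of freedom, Benjamini-Hochberg adjustment over all 9652 genes). Python 3.11.15, numpy 2.4.6, pandas 2.3.3 and matplotlib 3.10.9 were used for lists and plots. On simulated data with 200 changed genes among 9652, changes of 0.5 on the log2 scale were recovered in 68% of cases and changes of 1 in 96%. Of the calls, 5.6% and 5.9% were unchanged genes. The simulation drew independent normal noise for each gene, with no library standing apart. In the real data 23.9% of genes were called and BBBPH 2_2 and model 1_4 stood apart. The simulated shares thus show that the code works and do not give error rates of this comparison. FPKM steps gave whole fragment counts (within 0.02) for 9646 of the 9652 tested genes, which allowed a count-based fit with voom, an alternative chosen after seeing the data.

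The members, the 40 pathway lists and the 14 marker lists were chosen with earlier results of these data known. Named by rule were the 6 largest rises and the 6 largest falls without overlap whose higher group averaged 5 FPKM or more, the 2 members with the smallest adjusted p of each list with at least 3 called members, and 19 genes of bile acid, lipid, stress and inflammation biology whatever their values. Some genes are not reported here by name, though they stay in the fits and counts. Other members were named after their values were seen. In the rule for rises and falls, unnamed gene models and acinar markers were left out. Gene positions are from GENCODE M21 (GRCm38) and promoter windows from RefSeq. Alternatives were another pseudocount, other filters, TPM, median-ratio and quantile scaling, other variance settings, library weights, a fit over 3 groups, blocks, a fold minimum and libraries left out. Within groups, no library pair agreed within sampling noise. The groups share 2 replicate numbers (2_1 and 3_4), whose deviations from the group means correlated at -0.328 and -0.135, so the numbers were not taken as pairs.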

Additional observations from a re-analysis of the deposited data

Results flagged for a closer look

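In 22 of 275 combinations of a named gene and a group of 5 libraries, 1 library stood apart from the other 4 by Dixon's criterion, which chance meets in about 1 of 20 groups. No explanation was tested.

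Model 3_4 stood apart for 4 genes. It held 47.6 FPKM of Hsd3b5 (1.39 to 10.5 in the other model libraries), 50.6 of Cd36 (82.6 to 92.2), 226 of Apom (159 to 171) and 2.53 of H2-Q7 (1.24 to 1.52), and each of these values lay on the side of BBBPH. Model 1_4 stood apart for Saa2, at 14965 FPKM against 61.6 to 194, and for Ndufa4l2, at 1.39 against 0.794 to 0.944.

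Among BBBPH libraries, 3_2 held 57.7 FPKM of Abcb11 (36.5 to 41.2 in the others), 247 of Tkfc (124 to 155) and 0.239 of Cyp2b10 (0.0403 to 0.0975). Library 3_1 held 90.1 FPKM of Fgf21 (14.3 to 27.5) and 31.3 of Nr0b2 (12.6 to 16.2). Library 2_1 held 64.4 FPKM of Nr1h4 (83.1 to 88.4) and 133 of Cyp8b1 (30.7 to 58.3), and 2_2 held 7.35 of Lss (5.01 to 5.34).

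Among control libraries, 2_1 held 1.04 FPKM of Cidea (0 to 0.0952), 2.01 of Ndufa4l2 (0.932 to 1.18) and 1.24 of Col1a1 (0.464 to 0.635). Control 3_4 held 1.28 FPKM of Rrm2 (2.25 to 2.57) and 10.8 of Fgf21 (1.23 to 2.62). Control 1_1 held 5.81 FPKM of Slc30a1 (6.54 to 6.77), control 2_2 held 371 of Glud1 (295 to 306) and control 1_5 held 0.862 of Cyp2a22 (0.181 to 0.296).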

How the results depend on the processing

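The main counts were 2306 genes called, 1233 higher and 1073 lower, with 415 called among list genes. A filter at 5 FPKM called 1500 (779 higher). The first digit of the library number as a block called 1069 (482 higher, 587 lower, 249 in lists), and 1026 of these were among the main calls. The replicate block, over 2 shared numbers with 1 residual degree of freedom, called 1 gene, with 1 higher, 0 lower and 0 in lists. Asking in addition for a log2 change of 1 or more left 218 (79 higher, 139 lower, 114 in lists). Without BBBPH 2_2 and model 1_4, 815 were higher. In that setting, rises numbered 2 among P450 genes, 3 among PXR and CAR targets, 2 among carboxylesterases and 2 among fructose genes. Rises numbered 4 among clock genes, 3 among respiratory chain subunits and 5 among fat uptake and storage genes. Falls numbered 3 among lysosomal genes, 2 among complement and coagulation genes and 1 among clock genes. Without model 1_4 alone, 5 fatty acid oxidation genes and 2 clock genes fell. Leaving out each library in turn gave 1773 to 2224 genes called, 879 to 1285 higher, 822 to 1036 lower and 359 to 415 in lists. With TPM 48.2% of calls were higher, with the first-digit block 45.1%, and 53.5% in the main counts. voom called 2311 genes. Nr0b2 reversed to -0.53 with the replicate block and -0.21 with the first-digit block. Cyp3a11 ranged from -0.33 to 0.20 with a library left out, above 0 without BBBPH 3_4 (0.08), model 1_1 (0.20) or model 2_1 (0.08). The cause of these shifts was not tested. With the first-digit block, G6pc (adjusted p = 0.0782), Bhmt (0.0726), Slc30a1 (0.0542), Psmb10 (0.0639), Tat (0.0693), Cyp2a22 (0.0628) and Cyp8b1 (0.0532) were no longer called by limma, and these 7 were also lost with the replicate block (adjusted p 0.0961 to 0.657). Since the replicate block called 1 gene in all, a loss under it, here or above, does not set a gene apart.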

Other observations

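A further 5 gene lists were made after their values were seen, so their counts describe these libraries and support nothing. Galectins, proteins that bind sugars, held 4 falls and 1 rise among 6 tested (median -0.55), and 1 fall with the first-digit block. Lgals1 fell from 134 ± 31.7 to 27.7 ± 7.05 FPKM (log2 fold change -2.23, limma adjusted p = 7.06e-05) without overlap, and Lgals4 rose by 0.65. Annexins and S100 calcium-binding proteins held 6 falls and 1 rise among 18 (median -0.32), and 3 falls with the first-digit block. S100a10 fell from 242 ± 16.2 to 75.3 ± 19.9 FPKM (-1.71) and its partner Anxa2 from 30.2 ± 7.8 to 11.7 ± 2.19 (-1.27). Of 10 tested tubulins 6 fell and 0 rose (median -0.44), with Tubb4b going from 63.2 ± 5.97 to 27.4 ± 4.62 FPKM (-1.19, limma adjusted p = 7.49e-05).

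In the synthesis of nucleotide sugars, the donors for glycosylation, 6 of 19 tested genes fell and 2 rose (median -0.15). Ugdh, which makes UDP-glucuronic acid, fell from 100 ± 15.9 to 35 ± 4.46 FPKM (-1.49, limma adjusted p = 5.8e-05), and Gfpt1, the entry enzyme of the hexosamine pathway, from 7.51 ± 0.97 to 3.33 ± 0.337 (-0.97). Gne, the first enzyme of sialic acid synthesis, rose by 0.63. Mitochondrial ribosomal proteins, set beside the cytosolic ones, held 1 rise and 2 falls among 78 tested (median 0.02).

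Among sinusoidal endothelial markers Lyve1 fell from 13.5 ± 1.96 to 5.09 ± 1.33 FPKM (-1.26) and Kdr rose by 0.56, with no other call among 12 tested. Erythroid markers held 3 rises and 1 fall among 5 tested, and 0 rises without BBBPH 2_2 and model 1_4 or with the first-digit block; the globin copies share sequence, so their separate values are uncertain.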
